A study of Mus musculus with 18 samples.

Results

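The genes described here are 29 mouse genes of sterol synthesis and of its transcriptional control, followed through 18 RNA-seq libraries of mouse epidermis. They were chosen by known function: 7 enzymes of the mevalonate pathway, 11 enzymes from squalene to cholesterol, 5 regulators of the SREBP transcription factors, 1 sterol carrier and 5 enzymes of fatty acid synthesis. All 29 were found by symbol among the 56246 genes of the count table, and all 29 passed the filter on low counts that left 18910 genes for testing. Male mice of 3 genotypes, 10 weeks old, were compared, each genotype with and without 1 exposure of shaved skin to ultraviolet B (UVB) at 180 mJ/cm2. Irradiated mice had been shaved 48 h before the exposure, and dorsal skin was taken 24 h after it. The labels give a shaving time for irradiated mice only. If unirradiated mice were not shaved, effects of shaving and of UVB cannot be told apart here. K14-OPN mice carry osteopontin (OPN, the secreted phosphoprotein encoded by Spp1) under the keratin 14 promoter, which drives expression in basal keratinocytes, on an OPN-null background. WT mice have the endogenous gene, and OPN-null mice lack OPN. The irradiated groups held 3 K14-OPN, 3 WT and 4 OPN-null libraries, and the unirradiated groups held 3 K14-OPN, 2 WT and 3 OPN-null libraries. Epidermis was scraped from the dorsal skin with a razor blade. The labels do not state whether the libraries of a group came from separate animals or from pools, so the p-values below measure the spread between these libraries, which may be technical.

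Cholesterol is built from acetyl-CoA through mevalonate, farnesyl diphosphate, squalene and lanosterol. The genes of the route are targets of SREBP2, encoded by Srebf2, while SREBP1, encoded by Srebf1, acts chiefly on fatty acid synthesis. Both factors are made as precursors in the membrane of the endoplasmic reticulum, where Scap escorts them to the Golgi for cleavage when sterols are low and where Insig1 and Insig2 hold Scap back when sterols are high. In epidermis, keratinocytes make much of their own cholesterol and fatty acids, and both go into the lipid lamellae of the water barrier. Sebaceous glands are another lipid-making compartment of the skin.

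Apart from the labelled groups, the libraries were of 2 kinds. In 6 of them, 1 in each group, the small nuclear RNA gene Rn7sk held 66654 to 383142 counts and Lars2 held 1216 to 6763, and these are called 7SK-rich. In the other 12, called Lars2-rich, Rn7sk held 295 to 2904 counts and Lars2 held 149186 to 822109. The results below come from fits with a term for the kind of library, unless said otherwise. Values are given with the 7SK-rich library of each group first, in the order K14-OPN 1, 2 and 3, WT 8, 6 and 7 and OPN-null 16, 13, 14 and 15 with UVB, and K14-OPN 2, 1 and 11, WT 11 and 10 and OPN-null 10, 8 and 9 without. By that term 9 of 29 genes were higher in 7SK-rich than in Lars2-rich libraries (Idi1, Lss, Dhcr7, Srebf1, Srebf2, Scap, Stard4, Acaca and Fasn) and 5 were lower (Acat2, Pmvk, Mvd, Msmo1 and Ebp), against 26.2% and 15.7% of all genes. The median exon length was 7184 bases for the 9 and 2310 bases for the 5. Gene counts per library ran between 3696865 and 26068614, with a median of 10675107.5, and the 10 most abundant genes took between 12.4% and 84.3% of them. Spp1 had 14948, 6139 and 12729 counts in irradiated K14-OPN libraries, 276, 3443 and 2538 in irradiated WT libraries, and 37, 28, 74 and 20 in irradiated OPN-null libraries. Without UVB it had 994, 226 and 331 counts in K14-OPN, 51 and 121 in WT, and 74, 6 and 0 in OPN-null libraries. The keratinocyte genes Krt14, Krt5, Krt1 and Krt10 were detected in all 18 libraries. In such bulk samples, fewer cells of a type and less RNA per cell cannot be told apart.

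Levels of different genes were compared as CPM, counts scaled by library size, divided by exon length in kilobases (CPM per kilobase). Averaged over the 18 libraries, Hmgcs1, which makes HMG-CoA, had the highest level of the 29, 41.7 ± 12.2 CPM per kilobase (SD). It was followed by Acly, which makes cytosolic acetyl-CoA from citrate, at 37.7 ± 9.09, the lanosterol demethylase Cyp51 at 33.3 ± 10.0, and the sterol methyl oxidase Msmo1 at 30.7 ± 10.9 CPM per kilobase. The phosphomevalonate kinase Pmvk (28.3), the fatty acid synthase Fasn (27.5) and the squalene epoxidase Sqle (25.0 CPM per kilobase) came next. These neighbours differed by less than their SDs. The lowest levels were those of the farnesyl diphosphate synthase Fdps at 3.00 ± 1.81, the acetyl-CoA carboxylase Acaca at 2.183 ± 1.73, the isopentenyl diphosphate isomerase Idi1 at 1.92 ± 1.04, and the acetyl-CoA synthetase Acss2 at 1.05 ± 0.919 CPM per kilobase. Length was that of all annotated exons together, 17074 bases for Acaca and 10163 for Acss2. A gene expressed from only some of its exons is therefore placed too low. Of 4208 exon bases of Fdps, 1124 are shared with a gene on its own strand. Across libraries, the SD of log2 CPM was largest for the fatty acid elongase Elovl6 (1.23), Acaca (1.14), Acss2 (1.12) and Insig1 (1.08). It was smallest for the sterol desaturase Sc5d (0.26) and the mevalonate kinase Mvk (0.28). No library had 0 counts for any of the 29 genes: the lowest count was 4, for Idi1, and the highest was 12406, for Fasn.

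The first question was which of the 29 genes changed 24 h after UVB in each genotype. Genes were called at an adjusted p below 0.05 in edgeR's quasi-likelihood test, with Benjamini-Hochberg adjustment over all 18910 genes; all p-values given as adjusted come from that test unless another is named. In OPN-null epidermis, 7 of the 29 genes fell and 0 rose, against 13.7% of all genes called in either direction, 6.5% lower and 7.22% higher; the 7 are 24.1% of the 29. They were 3 mevalonate pathway genes (Fdps, Mvd and Hmgcs1), the sterol carrier Stard4 and 3 fatty acid genes (Elovl6, Acss2 and Acaca), and of the 11 genes from squalene to cholesterol and the 5 SREBP regulators 0 passed here. DESeq2 called 10 lower and 0 higher, against 12.6% and 11.3% of the genes it tested, and limma-voom 8 lower and Scap higher, against 8.54% and 7.95%. Before adjustment 11 of the 29 had a p below 0.05, against 29.3% of all genes. The 29 genes had a median log2 fold change of -0.33, against 0.10 over all genes tested, and 23 of the 29 were negative.

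Elovl6, which lengthens palmitate to stearate, had 31.6, 122, 33.2 and 42.1 CPM in the irradiated OPN-null libraries, against 126, 393 and 392 CPM in the unirradiated ones. Each unirradiated value was above each irradiated one, and the highest irradiated library, number 13, was close to the lowest unirradiated one, number 10. The log2 fold change was -2.41 ± 0.45 (SE, adjusted p = 0.00285). Acss2, which makes acetyl-CoA from acetate, had 5.10, 2.13, 1.53 and 4.83 CPM in the irradiated OPN-null libraries, against 11.2, 23.3 and 40.6 CPM in the unirradiated ones, again with no overlap; its log2 fold change was -2.80 ± 0.53 (adjusted p = 0.00326). The other fatty acid gene called, Acaca, makes malonyl-CoA. It had 38.2, 11.2, 10.5 and 11.2 CPM in the irradiated OPN-null libraries, against 98.3, 29.5 and 20.7 CPM in the unirradiated ones. The groups overlapped when the kinds were mixed and were apart among the Lars2-rich libraries. The 7SK-rich kind had 1 library on each side, so overlap could not be seen there. The log2 fold change of Acaca was -1.28 ± 0.34 (adjusted p = 0.0206).

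Of the mevalonate genes, Fdps, which makes farnesyl diphosphate, the last intermediate shared by sterols and isoprenoids, had 7.26, 7.65, 8.18 and 6.41 CPM in the irradiated OPN-null libraries, against 19.3, 30.3 and 28.5 CPM in the unirradiated ones. The irradiated libraries lay within a narrow range below all unirradiated ones, and the log2 fold change was -1.81 ± 0.36 (adjusted p = 0.00402). The mevalonate diphosphate decarboxylase Mvd had 16.8, 21.2, 19.9 and 17.4 CPM in the irradiated OPN-null libraries, against 23.2, 55.0 and 54.1 CPM in the unirradiated ones. Its groups did not overlap, and its log2 fold change was -1.19 ± 0.27 (adjusted p = 0.00915). Hmgcs1 had 117, 111, 138 and 156 CPM in the irradiated OPN-null libraries, against 269, 254 and 249 CPM in the unirradiated ones. These were also apart, with a log2 fold change of -1.02 ± 0.25 (adjusted p = 0.0128). Stard4, a soluble carrier that moves cholesterol between membranes, had 33.9, 20.6, 21.9 and 27.6 CPM in the irradiated OPN-null libraries, against 145, 60.2 and 24.2 CPM in the unirradiated ones. Unirradiated library 9 lay below 2 of the irradiated ones, whereas the 7SK-rich libraries were far apart, and the log2 fold change was -1.32 ± 0.35 (adjusted p = 0.0201). Over all 29 genes, 9 were lower without overlap of the groups, against 7.84% of all genes tested, and 1 was higher, against 11.3%. Elovl6, Acss2, Fdps, Mvd and Hmgcs1 were called whichever of the 7 libraries was left out, whereas Stard4 lost its call without irradiated library 14 or 16 or unirradiated library 8 or 10, down to a log2 fold change of -0.90 without number 10. Acaca lost its call without irradiated library 14 or unirradiated library 8 or 10, with values of -1.24 or nearer to 0. In a fit without the term for the kind of library, Hmgcs1 (adjusted p = 0.109), Mvd (0.078), Stard4 and Acaca were not called. In Lars2-rich libraries only, Hmgcs1 (adjusted p = 0.0851), Stard4 and Acaca were not called. Hmgcs1 also lost its call without the filter on low counts (adjusted p = 0.0668).

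**Figure D1:**
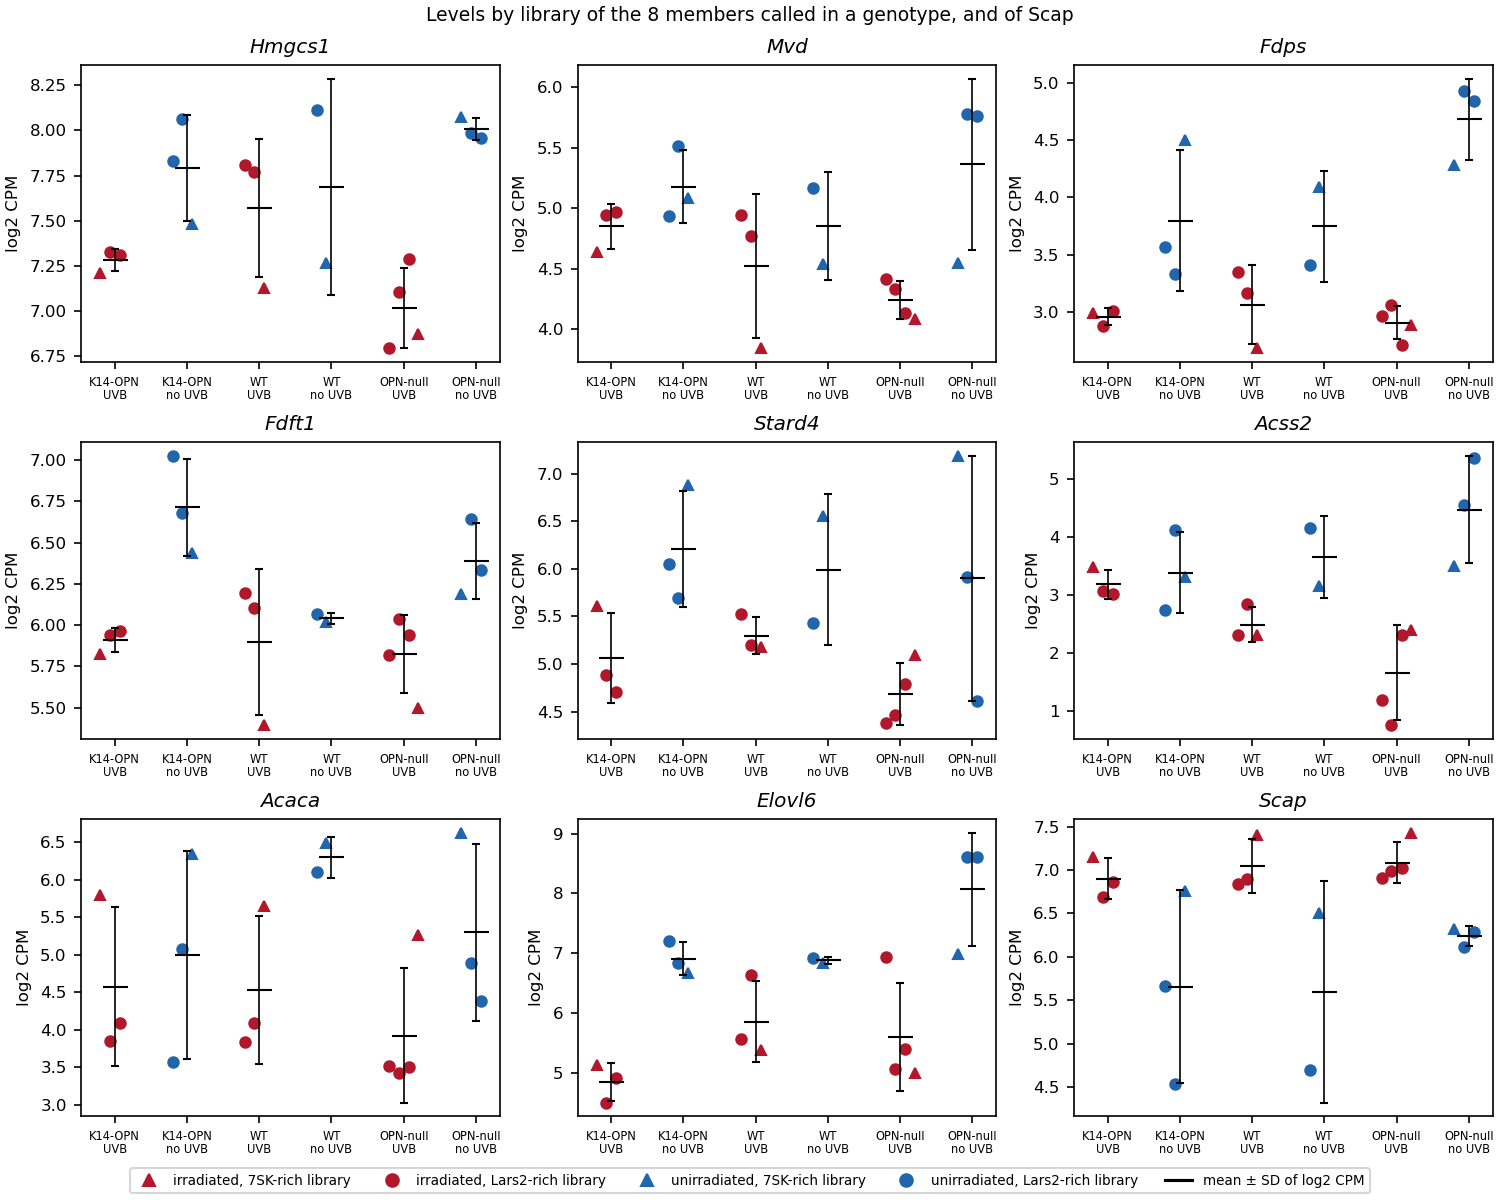
Log2 CPM (vertical axes) of the 8 genes called in at least 1 genotype, and of Scap, in every library of the 6 groups (horizontal axes); triangles are 7SK-rich and circles Lars2-rich libraries, red is irradiated, blue unirradiated, and black marks give the mean ± SD. Elovl6 and Fdps lie lower with UVB in each genotype, Scap lies higher, and triangles stand above circles for Acaca.

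The genes were identified by the table's Ensembl IDs and placed with the GENCODE M21 annotation of GRCm38. Elovl6 (ENSMUSG00000041220.10) lies at chr3:129532355-129638495 on the plus strand, Acss2 (ENSMUSG00000027605.18) at chr2:155517948-155585724 on the plus strand and Acaca (ENSMUSG00000020532.18) at chr11:84129672-84401651 on the plus strand. Of the sterol genes, Hmgcs1 (ENSMUSG00000093930.2) lies at chr13:119690379-119708260 on the plus strand, Mvd (ENSMUSG00000006517.5) at chr8:122433601-122443422 on the minus strand, Fdps (ENSMUSG00000059743.12) at chr3:89093588-89101959 on the minus strand and Fdft1 (ENSMUSG00000021273.11) at chr14:63145150-63179578 on the minus strand. Scap (ENSMUSG00000032485.14) lies at chr9:110333288-110384950 on the plus strand. Counts are over the exons of each gene; those of Acss2 share 927 bases and those of Fdft1 774 bases with genes on the other strand.

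The promoters of genes called in at least 1 genotype are printed here as a description of sequence, because the list holds known targets of SREBP. RefSeq windows of 300 bases (250 before to 50 after the start, GRCm38.p6) were in hand for 25 of the 29 genes, and 5 of the 8 genes called in any genotype are shown. Elovl6 is at chr3:129532136-129532435 on the plus strand, Acss2 at chr2:155517793-155518092 on the plus strand, Mvd at chr8:122443373-122443672 on the minus strand, Hmgcs1 at chr13:119690101-119690400 on the plus strand and Acaca at chr11:84195188-84195487 on the plus strand. The Acaca window belongs to an alternative start inside the gene. Each is written 5′ to 3′ on the strand of its gene, and capitals mark the sterol regulatory element core TCACNCCAC or CACCCCAC, the NF-Y box CCAAT in either orientation and the E-box CACGTG, each searched on both strands.
Elovl6: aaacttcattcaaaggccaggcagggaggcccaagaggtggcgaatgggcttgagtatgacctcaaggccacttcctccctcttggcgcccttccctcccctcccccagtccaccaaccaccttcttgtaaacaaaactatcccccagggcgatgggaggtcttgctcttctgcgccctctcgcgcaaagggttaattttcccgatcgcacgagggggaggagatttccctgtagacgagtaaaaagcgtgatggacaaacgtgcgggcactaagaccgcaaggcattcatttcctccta
Acss2: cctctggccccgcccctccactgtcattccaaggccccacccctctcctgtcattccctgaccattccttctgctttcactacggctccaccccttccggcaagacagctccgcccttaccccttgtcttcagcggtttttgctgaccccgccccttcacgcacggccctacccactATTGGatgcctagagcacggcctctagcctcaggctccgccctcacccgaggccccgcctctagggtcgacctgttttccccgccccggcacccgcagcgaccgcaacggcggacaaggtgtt
Mvd: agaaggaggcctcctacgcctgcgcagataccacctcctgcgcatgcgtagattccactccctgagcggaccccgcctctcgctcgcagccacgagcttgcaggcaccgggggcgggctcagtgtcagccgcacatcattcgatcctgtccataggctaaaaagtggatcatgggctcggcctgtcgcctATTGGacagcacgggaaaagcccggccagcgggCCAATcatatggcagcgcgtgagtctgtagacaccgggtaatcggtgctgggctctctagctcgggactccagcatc
Hmgcs1: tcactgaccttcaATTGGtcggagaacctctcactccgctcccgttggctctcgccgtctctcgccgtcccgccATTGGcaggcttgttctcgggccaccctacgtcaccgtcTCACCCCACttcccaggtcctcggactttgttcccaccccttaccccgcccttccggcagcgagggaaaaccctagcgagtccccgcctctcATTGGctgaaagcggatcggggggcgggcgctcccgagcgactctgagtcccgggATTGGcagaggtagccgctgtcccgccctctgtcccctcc
Acaca: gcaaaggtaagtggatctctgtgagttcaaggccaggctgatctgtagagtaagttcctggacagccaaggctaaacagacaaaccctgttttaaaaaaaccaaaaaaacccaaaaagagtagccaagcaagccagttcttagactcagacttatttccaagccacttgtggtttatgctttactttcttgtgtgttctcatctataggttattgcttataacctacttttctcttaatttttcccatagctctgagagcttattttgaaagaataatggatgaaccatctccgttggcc

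The Hmgcs1 window held TCACCCCAC, at position -137 from the start site, and the reversed NF-Y box at -237, -176, -45 and 10. The Mvd window held a reversed NF-Y box at -60 and a forward one at -27, and the Acss2 window held a reversed one at -73, while the Elovl6 and Acaca windows held none of the marked motifs. Over the 25 genes, TCACNCCAC was in 1, against 1.44% of 27025 genes with a window, and CACCCCAC, which overlaps it, was in 2 (Acat2 and Hmgcs1), against 3.3%. CCAAT was in 21 of 25, against 41.1% of genes, the Sp1 box GGGCGG in 21, against 38.2%, and CACGTG in 5 (Dhcr7, Hsd17b7, Insig1, Sc5d and Scap), against 8.09%. A match describes the letters of the window, not a bound site.

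In K14-OPN epidermis, 2 of the 29 genes fell and 0 rose after UVB, against 4.43% of all genes called lower, 3.28% called higher and 7.71% called in all; the 2 are 6.9% of the 29, near the background. DESeq2 called 4 lower and Scap higher, against 10.7% and 6.72% of the genes it tested, and limma-voom 4 lower and Scap and Hsd17b7 higher, against 12.1% and 8.83%, so that these counts were near the background too. Before adjustment 7 of the 29 had a p below 0.05, against 24.8% of all genes. The median log2 fold change of the 29 was -0.18, against -0.09 over all genes. Elovl6 had 34.7, 22.4 and 29.9 CPM in the irradiated K14-OPN libraries, against 101, 148 and 115 CPM in the unirradiated ones. All 3 irradiated libraries were far below any unirradiated one. Its log2 fold change was -1.99 ± 0.49 (adjusted p = 0.0228). Fdft1, the squalene synthase and first enzyme committed to sterols, had 56.6, 61.2 and 62.2 CPM in the irradiated K14-OPN libraries, against 86.5, 130.1 and 102 CPM in the unirradiated ones, without overlap and with a log2 fold change of -0.81 ± 0.23 (adjusted p = 0.0433). Elovl6 was not called without irradiated library 2 or 3 or unirradiated library 2, with log2 fold changes of -1.74, -1.89 and -1.90. Fdft1 was not called when any 1 of the 6 libraries was left out, with log2 fold changes between -0.92 and -0.70.

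Hmgcs1 and Stard4 were also lower without overlap in irradiated K14-OPN epidermis but did not pass the test. Hmgcs1 had 148, 160.5 and 158 CPM in the irradiated K14-OPN libraries, against 179, 228 and 267 CPM in the unirradiated ones (log2 fold change -0.51 ± 0.27, adjusted p = 0.247). Stard4 had 48.6, 29.4 and 25.9 CPM in the irradiated K14-OPN libraries, against 118, 66.2 and 51.5 CPM in the unirradiated ones (log2 fold change -1.16 ± 0.37, adjusted p = 0.0643). Fdps had 7.81, 7.18 and 7.91 CPM in the irradiated K14-OPN libraries, against 22.4, 11.7 and 9.91 CPM in the unirradiated ones. With Elovl6 and Fdft1, 5 genes were lower without overlap, against 9.21% of all genes. The sterol ketoreductase Hsd17b7, which acts in the removal of methyl groups from the sterol ring, was the 1 gene that was higher without overlap, against 11.5% of all genes. Acss2, in contrast to OPN-null epidermis, had 11.0, 8.19 and 7.96 CPM in the irradiated K14-OPN libraries, against 9.77, 6.49 and 17.1 CPM in the unirradiated ones, which overlapped, with a log2 fold change of -0.29 ± 0.54 (adjusted p = 0.785).

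In WT epidermis, with 2 unirradiated libraries, 1 of the 29 genes fell and 0 rose, against 1.73% of all genes called lower, 1.99% called higher and 3.73% in all, so that the share was near the background. Before adjustment 4 of the 29 had a p below 0.05, against 19.5% of all genes. The gene called was Acaca, with 50.2, 14.1 and 16.9 CPM in the irradiated WT libraries, against 89.8 and 68.3 CPM in the unirradiated ones. It was lower in each irradiated library than in either unirradiated one, and its log2 fold change was -1.62 ± 0.40 (adjusted p = 0.036). Without unirradiated library 10, 1 of the Lars2-rich libraries, the value was -0.69 and the call was lost, as it was without irradiated library 6, 7 or 8. Without unirradiated library 11 it was -2.178 and 3 genes were called, Scap higher and Insig1 and Acaca lower. Elovl6 had 41.3, 47.0 and 98.7 CPM in the irradiated WT libraries, against 114 and 121 CPM in the unirradiated ones, lower without overlap, with a log2 fold change of -1.08 ± 0.53 (adjusted p = 0.274). Acss2 had 4.83, 4.83 and 6.98 CPM in the irradiated WT libraries, against 8.74 and 17.5 CPM in the unirradiated ones, also without overlap, with a log2 fold change of -1.24 ± 0.61 (adjusted p = 0.278). Fdps was the fourth gene lower without overlap, against 13.7% of all genes, while Sqle, Hsd17b7 and Scap were higher without overlap, against 14.8%. The median log2 fold change of the 29 was 0.175, against -0.05 over all genes tested. The test of whether the genotypes differed in these changes follows the averages.

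**Figure D2:**
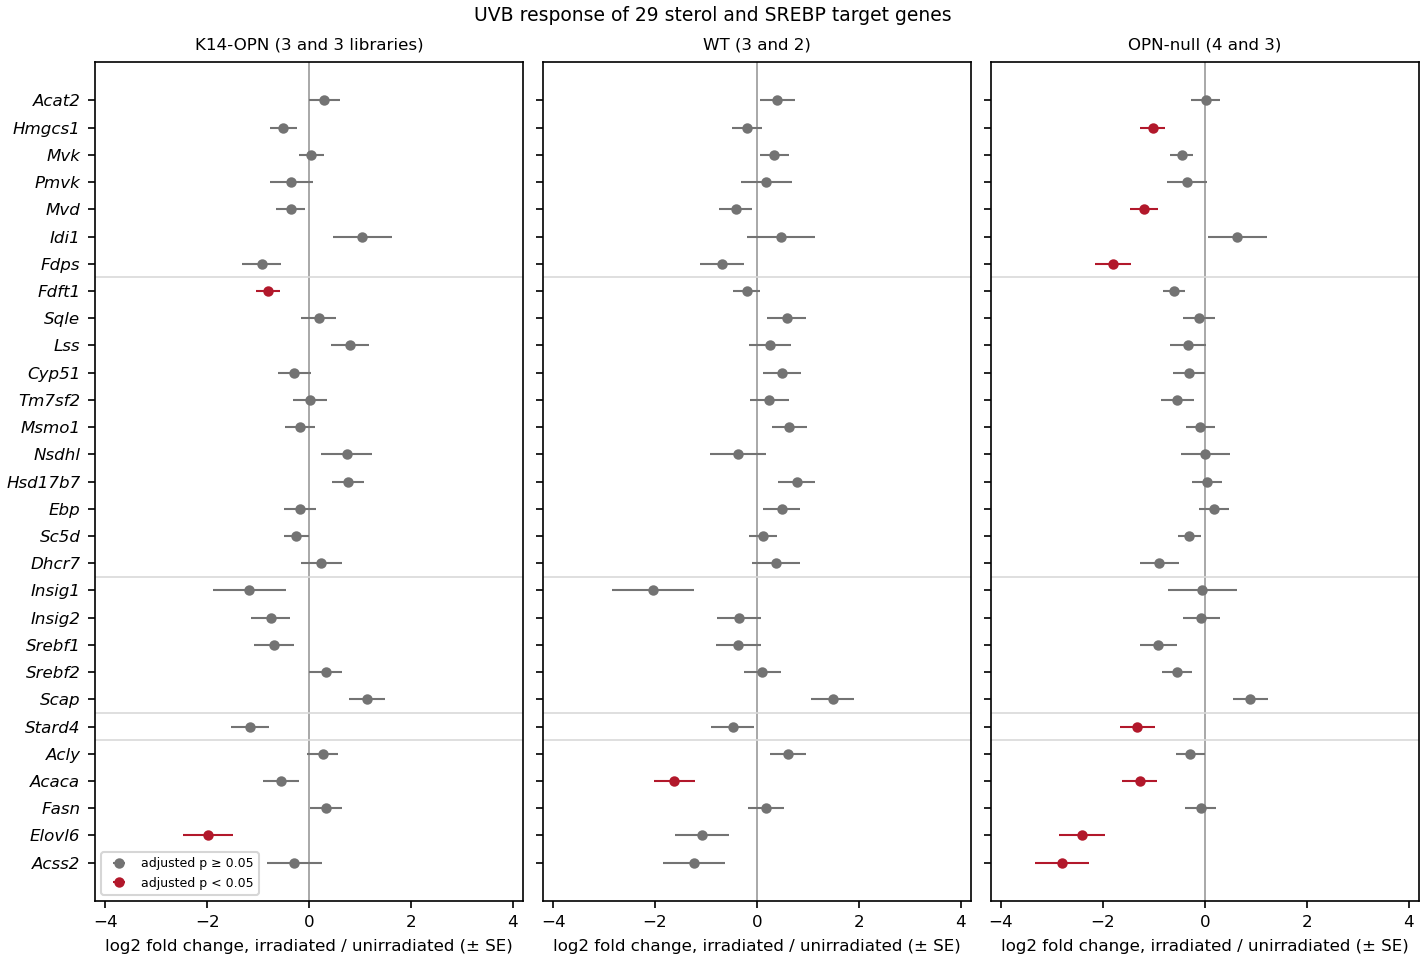
Log2 fold change (UVB over no UVB, horizontal axes, ± SE) of the 29 genes in pathway order from top to bottom, in K14-OPN, WT and OPN-null epidermis from left to right, with called genes in red. OPN-null has 7 called genes, K14-OPN 2 and WT 1, all to the left of 0.

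A fit that averaged the UVB change of the 3 genotypes, chosen after seeing the data, used all 18 libraries for each gene and called 11 of the 29. Of these 9 fell and 2 rose, against 16.7% of all genes called lower, 15.6% called higher and 32.4% called in all; the 9 are 31% and the 2 are 6.9% of the 29. The 29 genes had a median log2 fold change of -0.09, against -0.02 over all genes tested. The decreases were in 3 of 7 mevalonate genes, 1 of 11 genes from squalene to cholesterol, 1 of 5 regulators, the sterol carrier and 3 of 5 fatty acid genes.

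Elovl6 fell most, by a log2 fold change of -1.83 ± 0.28 (adjusted p = 0.000165); its lowest, median and highest levels were 22.4, 38.0 and 122 CPM in the 10 irradiated libraries and 101, 124 and 393 CPM in the 8 unirradiated ones. Acss2 (-1.44 ± 0.33, adjusted p = 0.00303) and Acaca (-1.15 ± 0.21, adjusted p = 0.000683) fell as well. The other 2 fatty acid genes gave positive estimates that did not pass: Acly had 0.20 (adjusted p = 0.441) and Fasn 0.14 (adjusted p = 0.603). Acly had 163, 201 and 255 CPM (lowest, median and highest) with UVB and 93.0, 216 and 268 CPM without, so the ranges overlapped. Fasn had 165, 209 and 594 CPM with UVB and 131, 262 and 497 CPM without.

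In the mevalonate pathway Fdps fell by a log2 fold change of -1.14 ± 0.23 (adjusted p = 0.00119), Mvd of -0.65 ± 0.17 (0.00751) and Hmgcs1 of -0.57 ± 0.16 (0.00984). Without unirradiated WT library 10 the values of Mvd and Hmgcs1 were -0.56 and -0.38 and neither was called. Fdps had 6.27, 7.73 and 10.0 CPM (lowest, median and highest) in irradiated libraries and 9.91, 18.1 and 30.3 CPM in unirradiated ones. The 4 other enzymes of this stretch did not pass: the acetoacetyl-CoA thiolase Acat2 had a log2 fold change of 0.24, Mvk of -0.02, Pmvk of -0.17 and Idi1 of 0.72. Mvk stayed within a narrow range, with 33.2, 46.5 and 53.8 CPM with UVB and 34.3, 49.8 and 66.1 CPM without. Idi1 had few counts, 3.58, 7.76 and 14.1 CPM with UVB and 1.04, 4.25 and 8.35 CPM without. Acat2 and Idi1 have related neighbours, Acat3 and Idi2. How many reads could go to either copy was not measured.

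After farnesyl diphosphate, Fdft1 fell by a log2 fold change of -0.54 ± 0.14 (adjusted p = 0.00667) and Hsd17b7 rose by 0.53 ± 0.19 (adjusted p = 0.0379), while 9 of the 11 genes did not pass, with estimates between -0.14 and 0.24. These 9 were Sqle, which adds oxygen to squalene (0.22); Lss, which closes the ring to lanosterol (0.24); Cyp51 (-0.04); the sterol reductase Tm7sf2 (-0.09); Msmo1 (0.13); the sterol dehydrogenase Nsdhl (0.13); the sterol isomerase Ebp (0.16); Sc5d (-0.14) and Dhcr7 (-0.09), which makes cholesterol from 7-dehydrocholesterol, the molecule that UVB converts to previtamin D. Dhcr7 had 34.2, 58.4 and 95.5 CPM (lowest, median and highest) in irradiated libraries and 28.5, 66.3 and 161 CPM in unirradiated ones. Sqle had 92.2, 143 and 183 CPM with UVB and 62.0, 126 and 198 CPM without. Cyp51 had 104, 136 and 198 CPM with UVB and 96.0, 143 and 273 CPM without. For each of these 3 the ranges overlapped widely. Hsd17b7 had 25.7, 53.7 and 87.6 CPM with UVB and 25.98, 39.2 and 47.7 CPM without; its call was lost without any 1 of 11 of the 18 libraries, with the lowest value, 0.41, without unirradiated WT library 11.

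Among the regulators, Scap rose by a log2 fold change of 1.17 ± 0.22 (adjusted p = 0.00078). It had 142, 103 and 116 CPM in irradiated K14-OPN libraries, against 108, 50.7 and 23.1 CPM in unirradiated ones. In WT it had 169, 115 and 119 CPM with UVB, against 90.3 and 25.8 CPM without. In OPN-null it had 172, 119.5, 127 and 129.7 CPM with UVB, against 80.0, 69.0 and 77.6 CPM without. The groups did not overlap in WT and OPN-null epidermis, and in K14-OPN the irradiated library 2 lay just below the unirradiated 7SK-rich one. No single genotype passed the test, with adjusted p of 0.0609 in K14-OPN, 0.0589 in WT and 0.0894 in OPN-null. Srebf1, which encodes SREBP1, fell, with a log2 fold change of -0.65 ± 0.24 (adjusted p = 0.0446), with 19.5, 35.7 and 59.7 CPM (lowest, median and highest) in irradiated libraries and 28.5, 57.2 and 146 CPM in unirradiated ones. That call was lost without any 1 of 13 of the 18 libraries, with values between -0.68 and -0.53, and in the 12 Lars2-rich libraries the estimate was -0.28 (adjusted p = 0.537). Srebf2, which encodes SREBP2, did not pass, with a log2 fold change of -0.04 (adjusted p = 0.903). The exons of Scap share 985 bases with a gene on the other strand, and those of Fdps share 1124 bases with a gene on its own strand. The sources used here do not say whether counting used strand.

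Insig1, itself a target of SREBP, did not pass, at -1.09 ± 0.42 (adjusted p = 0.0569), and 2 libraries stood apart. It was called lower in DESeq2 (-1.15, adjusted p = 0.024), under RLE scaling (-1.15, 0.045), without the filter on low counts (-1.09, 0.00461) and in Lars2-rich libraries only (-1.50, 0.0205). It had 19.5, 19.6 and 21.9 CPM in irradiated K14-OPN libraries and 19.97, 15.8 and 103 CPM in unirradiated ones. In WT it had 27.6, 20.6 and 15.8 CPM with UVB and 17.0 and 163 CPM without, and in OPN-null 21.5, 11.0, 8.18 and 14.6 CPM with UVB and 20.5, 12.8 and 7.83 CPM without. The 2 high values came from unirradiated K14-OPN library 11 and unirradiated WT library 10. The same 2 libraries held 78936 and 73582 CPM of 8 hair shaft genes, against at most 140.3 CPM in any other library. Without unirradiated WT library 10 the log2 fold change of Insig1 was -0.16 (adjusted p = 0.827), and without both of these libraries and unirradiated OPN-null library 9 it was 0.27 (adjusted p = 0.422). Insig2 was highest in the first of them, with 25.6, 33.3 and 88.2 CPM in unirradiated K14-OPN libraries and 24.7 and 38.1 CPM in unirradiated WT libraries, and had a log2 fold change of -0.39 (adjusted p = 0.203). The part of hair shaft RNA in these values was not tested.

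**Figure D3:**
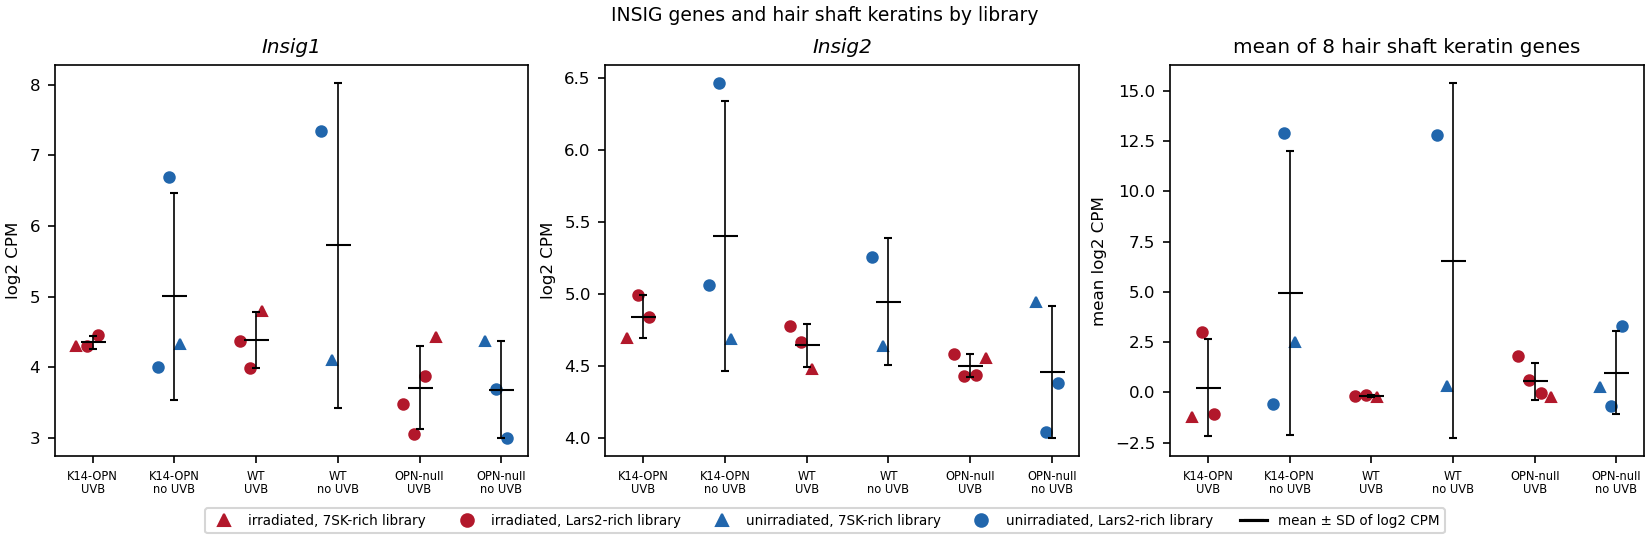
Log2 CPM of Insig1 and Insig2 and mean log2 CPM of 8 hair shaft genes (vertical axes) in every library of the 6 groups, with symbols as in the plot of levels by library. The unirradiated K14-OPN library 11 and WT library 10 stand far above the others for the hair shaft genes and for Insig1, and the K14-OPN one also for Insig2.

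The 6 7SK-rich libraries, 1 irradiated and 1 unirradiated of each genotype, allowed the average change to be fitted within 1 kind of library, a comparison chosen after seeing the data. This fit took genotype and UVB as additive terms and had no replicate within a genotype and treatment. The spread behind its p-values therefore mixes differences between libraries with any difference between genotypes in the UVB change. In it 9 of the 29 genes fell and 4 rose, against 22.5% of all genes called lower, 22.6% higher and 45.1% in all, of 16857 genes tested; the 9 are 31% and the 4 are 13.8% of the 29. Elovl6 had 34.7, 41.3 and 31.6 CPM in irradiated K14-OPN, WT and OPN-null libraries, against 101, 114 and 126 CPM in the unirradiated ones (log2 fold change -1.62 ± 0.17, adjusted p = 0.000163). Stard4 had 48.6, 36.0 and 33.9 CPM in irradiated K14-OPN, WT and OPN-null libraries, against 118, 93.8 and 145 CPM in the unirradiated ones (log2 fold change -1.54 ± 0.20, adjusted p = 0.000409). Fdps had 7.81, 6.27 and 7.26 CPM in irradiated K14-OPN, WT and OPN-null libraries, against 22.4, 16.8 and 19.3 CPM in the unirradiated ones (log2 fold change -1.40 ± 0.19, adjusted p = 0.000589). In each of these 3 genes the irradiated libraries were all below the unirradiated ones. The share of all genes without overlap in these 6 libraries was not counted, for these genes or for Srebf1 below. Srebf1 had 49.3, 53.0 and 59.7 CPM in irradiated K14-OPN, WT and OPN-null libraries, against 146, 125 and 116 CPM in the unirradiated ones (log2 fold change -1.20 ± 0.18, adjusted p = 0.000823), again without overlap. Of the genes that fell in the fit to all libraries, 7 fell here (Elovl6, Stard4, Fdps, Srebf1, Acaca, Fdft1 and Mvd), while Acss2 (-0.55, adjusted p = 0.147, against -1.44 in all libraries) and Hmgcs1 (-0.48, adjusted p = 0.112, against -0.57) did not pass. Pmvk (-1.01 ± 0.16, adjusted p = 0.0011) and Dhcr7 (-0.78 ± 0.18, adjusted p = 0.00791) fell in the 7SK-rich libraries and did not pass over all libraries. Scap (0.85 ± 0.19, adjusted p = 0.00638) and Hsd17b7 (1.01 ± 0.20, adjusted p = 0.00392) rose in both fits, and Idi1 (1.01 ± 0.28, 0.0182) and Fasn (0.60 ± 0.19, 0.0324) rose in the 7SK-rich libraries.

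The same average in the 12 Lars2-rich libraries called 7 of the 29 lower and Scap higher, against 9.49% and 11.9% of 18099 genes tested. The 7 were Hmgcs1 (log2 fold change -0.59, adjusted p = 0.0498), Mvd (-0.68, 0.0326), Fdps (-0.86, 0.033), Insig1, Acaca (-1.28, 0.00899), Elovl6 (-1.86, 0.00353) and Acss2 (-1.85, 0.00761), and Scap had 1.53 (0.00172). Stard4 (-0.64, adjusted p = 0.09), Fdft1 (-0.44, 0.102), Srebf1 (-0.28, 0.537) and Hsd17b7 (0.31, 0.419) did not pass there. Pmvk and Dhcr7, which fell in the 7SK-rich libraries, had 0.42 and 0.35 in the Lars2-rich ones. Mvd, Fdps, Acaca and Elovl6 fell and Scap rose in both kinds of library fitted apart. Hmgcs1, Mvd, Fdps, Stard4, Acaca and Elovl6 had a negative change in each genotype within each kind of library, and Acat2 and Scap a positive one. Each 7SK-rich comparison was of 1 library against 1, and the Lars2-rich one in WT had 1 unirradiated library. The shares of all genes that kept their direction in both kinds, or their sign in each genotype and kind, were not counted.

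**Figure D4:**
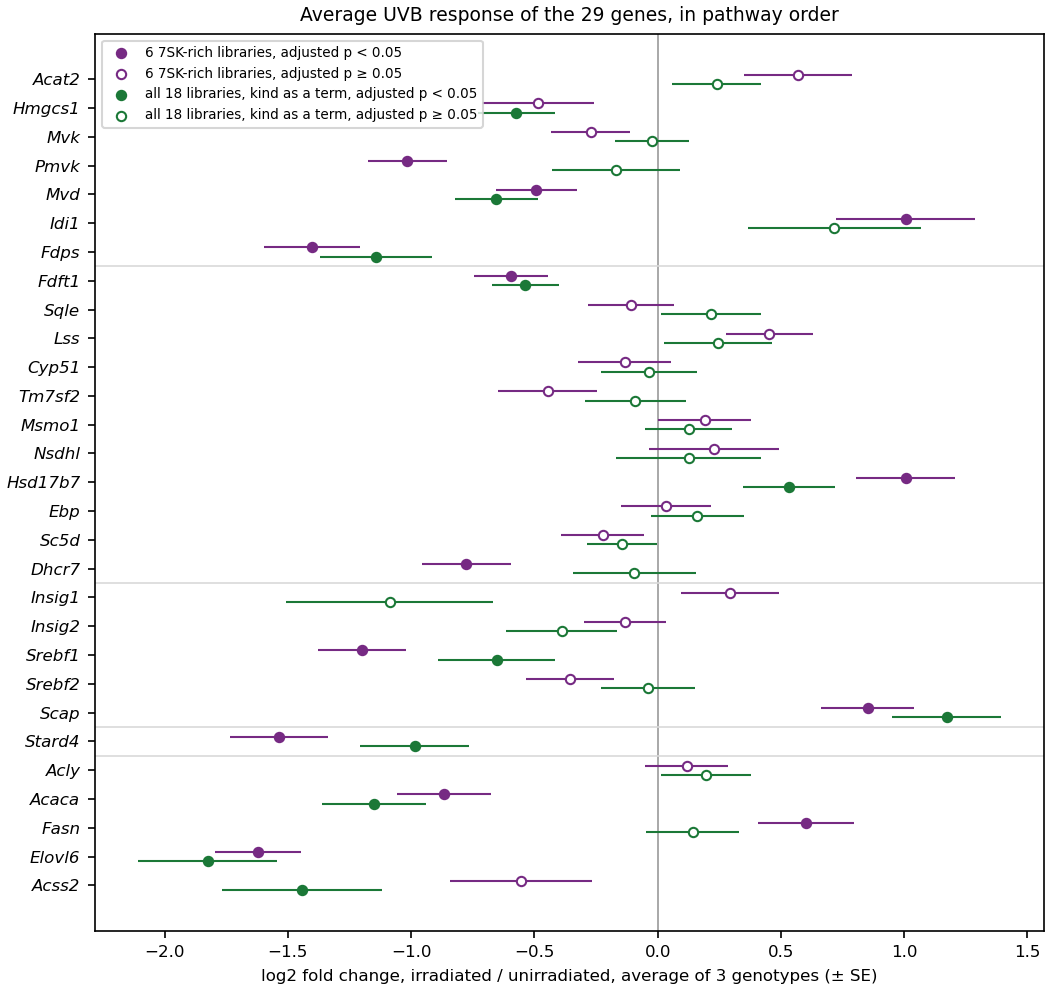
Average log2 fold change (UVB over no UVB, horizontal axis, ± SE) of the 29 genes in pathway order, from the 6 7SK-rich libraries (purple) and from all 18 libraries (green); filled points are called. Fdps, Mvd, Srebf1, Stard4, Acaca and Elovl6 are lower in both fits, and of the genes from squalene to cholesterol Fdft1 is lower and Hsd17b7 higher in both fits.

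Other lipid-making genes that SREBP1 is known to drive were counted from a list of 14, of which 13 could be tested. Of these, 4 fell and 0 rose in K14-OPN, 1 fell in WT, 5 fell in OPN-null, and 10 fell and 0 rose in the average, where their median log2 fold change was -1.45. The shares of all genes called lower were 4.43%, 1.73%, 6.5% and 16.7%. In the average 7 of the 13 fell and 1 rose in the 7SK-rich libraries, and 8 fell and 0 rose in the Lars2-rich ones. The stearoyl-CoA desaturase Scd1, which acts after Elovl6, had a log2 fold change of -3.19 ± 0.56 in OPN-null (adjusted p = 0.00201) and -2.02 ± 0.60 in K14-OPN epidermis (adjusted p = 0.0489). Its level was 22.9, 51.2 and 135 CPM (lowest, median and highest) in irradiated libraries and 175, 237 and 884 CPM in unirradiated ones, so that no libraries overlapped. Gpam, which starts glycerolipid synthesis, fell by a log2 fold change of -1.82 ± 0.34 in K14-OPN (adjusted p = 0.00461) and -1.67 ± 0.31 in OPN-null epidermis (adjusted p = 0.00281). The acetoacetyl-CoA synthetase Aacs (-1.13 ± 0.24, adjusted p = 0.00581) and Scd2 (-1.71 ± 0.43, adjusted p = 0.0152) fell in OPN-null epidermis. Within the 7SK-rich libraries the mean log2 CPM of the list differed between UVB and no UVB by -0.84 in K14-OPN, -0.72 in WT and -0.76 in OPN-null.

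Markers of several cell types moved with UVB beside these genes. In the average fit, 8 of 8 hair shaft genes, 6 of 10 dermal fibroblast genes, 4 of 5 granular keratinocyte genes and 1 of 7 adipocyte genes fell, against 16.7% of all genes. Without the unirradiated libraries K14-OPN 11, WT 10 and OPN-null 9, 0 of the 8 hair shaft genes, 7 of the 10 fibroblast genes, 4 of the 5 granular genes and 0 of the 7 adipocyte genes fell, against 12.2% of all genes. Of 10 sebocyte genes 1 fell and 1 rose, and of 7 basal keratinocyte genes 5 rose and 1 fell, with 15.6% of all genes higher. Of 8 immune genes 2 rose, S100a8 and S100a9, and 0 fell. In the 7SK-rich libraries 2 of this list rose and 3 fell, against 22.6% and 22.5% of all genes. In the Lars2-rich ones 1 rose and 0 fell, with 11.9% of all genes higher. Summed over each list, dermal fibroblast genes ranged between 17.9 and 592 CPM in irradiated libraries and between 182 and 4495 CPM in unirradiated ones, and granular genes between 1948 and 6900 CPM with UVB and between 2292 and 14352 CPM without. Within the 7SK-rich libraries the mean log2 CPM of the granular list differed between UVB and no UVB by -1.83 in K14-OPN, -1.35 in WT and -2.04 in OPN-null, and that of the fibroblast list by -3.25, -2.46 and -2.35. Within the Lars2-rich libraries the granular list differed by -0.63 in K14-OPN, 0.95 in WT and -1.28 in OPN-null, and the fibroblast list by -1.55, 0.78 and -4.10, WT having 1 unirradiated library there, number 10. Sebocyte genes summed to between 18.5 and 250.4 CPM in irradiated and between 27.9 and 480.0 CPM in unirradiated libraries. Their highest sums, 480.0 and 315 CPM, were in unirradiated OPN-null libraries 9 and 8, which also had the highest Elovl6 (392 and 393 CPM), and the highest irradiated sum, in OPN-null library 13, stood beside the highest irradiated Elovl6 (122 CPM). An unirradiated Lars2-rich K14-OPN library had a sebocyte sum of 308 CPM, near that of OPN-null library 8. Its Elovl6, given above, was far lower than in that library. Within the 7SK-rich libraries the sebocyte mean differed between UVB and no UVB by -0.69 in K14-OPN, -0.53 in WT and 1.08 in OPN-null, and within the Lars2-rich libraries by -0.02, -1.04 and -3.29. Of the 10 adipocyte genes Adipoq and Lep were at 0 in all 18 libraries, while Fabp4 reached 19606 counts and Lipe 1245; the list summed to between 36.1 and 65.6 CPM in irradiated libraries and between 30.3 and 2153 CPM in unirradiated ones, with the 2 highest sums, 2153 and 1858 CPM, in K14-OPN library 11 and WT library 10. The part of changing cell content in the sterol and fatty acid genes was not tested.

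The next question was whether the genotypes differed after UVB. With the OPN transgene against OPN-null, 0 of the 29 genes passed and 0 of all genes were called, which is 0%. DESeq2 also called 0 of the 29. Before adjustment 5 of the 29 had a p below 0.05, against 9.15% of all genes, and the smallest adjusted p of the 29 was 0.419. Estimates leaned to the K14-OPN side: 23 of 29 were positive and their median was 0.29, against 0.003 over all genes. Acss2 had the largest difference, 11.0, 8.19 and 7.96 CPM in irradiated K14-OPN libraries, against 5.10, 2.13, 1.53 and 4.83 CPM in irradiated OPN-null libraries, with no overlap (log2 difference 1.40 ± 0.51). Mvd had 24.7, 30.6 and 31.2 CPM in irradiated K14-OPN libraries, against 16.8, 21.2, 19.9 and 17.4 CPM in irradiated OPN-null libraries (log2 difference 0.65 ± 0.27). The groups did not overlap in 6 genes, all higher in K14-OPN (Mvk, Mvd, Tm7sf2, Nsdhl, Insig2 and Acss2), against 4.96% of all genes, and 0 were lower, against 2.72%. The limma-voom fit called 3 of the 29 (Lss, Hsd17b7 and Acss2), each higher in K14-OPN. Of all 18910 genes it called 530 higher and 1126 lower, 8.76% in either direction.

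Between irradiated WT and OPN-null epidermis 0 of the 29 genes passed, and 1 gene of all tested did, which is 0.00529%. DESeq2 and limma-voom called 0 of the 29, and 3 had an unadjusted p below 0.05, against 4.75% of all genes. The 29 estimates had a median of 0.33, against -0.02 over all genes, and 27 were positive. Within the kinds this lean was uneven: between the 2 7SK-rich libraries 17 of 29 differences were positive, with a median of 0.05, and among the Lars2-rich libraries 28 were, with a median of 0.48. Mvk, Sqle and Stard4 were higher in WT without overlap, against 2.14% of all genes. Stard4 had 36.0, 45.8 and 36.6 CPM in irradiated WT libraries, against 33.9, 20.6, 21.9 and 27.6 CPM in irradiated OPN-null libraries (log2 difference 0.62 ± 0.34, adjusted p = 0.919). Between irradiated K14-OPN and WT epidermis 0 of the 29 genes and 0% of all genes passed; the median was -0.08, Acss2 was higher and Elovl6 lower in K14-OPN without overlap, against 7.82% and 4.36% of all genes. Elovl6 had 34.7, 22.4 and 29.9 CPM in irradiated K14-OPN libraries, against 41.3, 47.0 and 98.7 CPM in irradiated WT libraries (log2 difference -0.99 ± 0.48, adjusted p = 1). Limma-voom called this gene lower, 1 of the 29. Of all 18910 genes it called 416 lower and 709 higher, 5.95% in either direction. DESeq2 called 0 of the 29, and before adjustment 0 had a p below 0.05, against 4.46% of all genes. The 3 contrasts share the same libraries in pairs and are not independent of each other.

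A test of the difference between the genotypes' UVB changes called 0 of the 29 genes and 0% of all genes, when either K14-OPN or WT was set against OPN-null in edgeR, and DESeq2 and limma-voom called 0 of the 29. Before adjustment 2 of the 29 had a p below 0.05 in each, against 8.16% and 4.04% of all genes. For K14-OPN the median of the 29 differences was 0.41, against -0.20 over all genes, with 23 positive; for WT it was 0.65, against -0.08, with 24 positive. Both comparisons use the same OPN-null libraries. The largest difference was that of Acss2, whose log2 fold change after UVB was -0.29 in K14-OPN, -1.24 in WT and -2.80 in OPN-null; K14-OPN minus OPN-null gave 2.51 ± 0.76 (adjusted p = 0.609). For Hmgcs1, WT minus OPN-null gave 0.84 ± 0.39 (adjusted p = 0.954). The larger number of genes called in OPN-null epidermis is therefore not shown to be a difference between genotypes. The OPN-null comparison also has the most libraries, 7, against 6 in K14-OPN and 5 in WT.

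**Figure D5:**
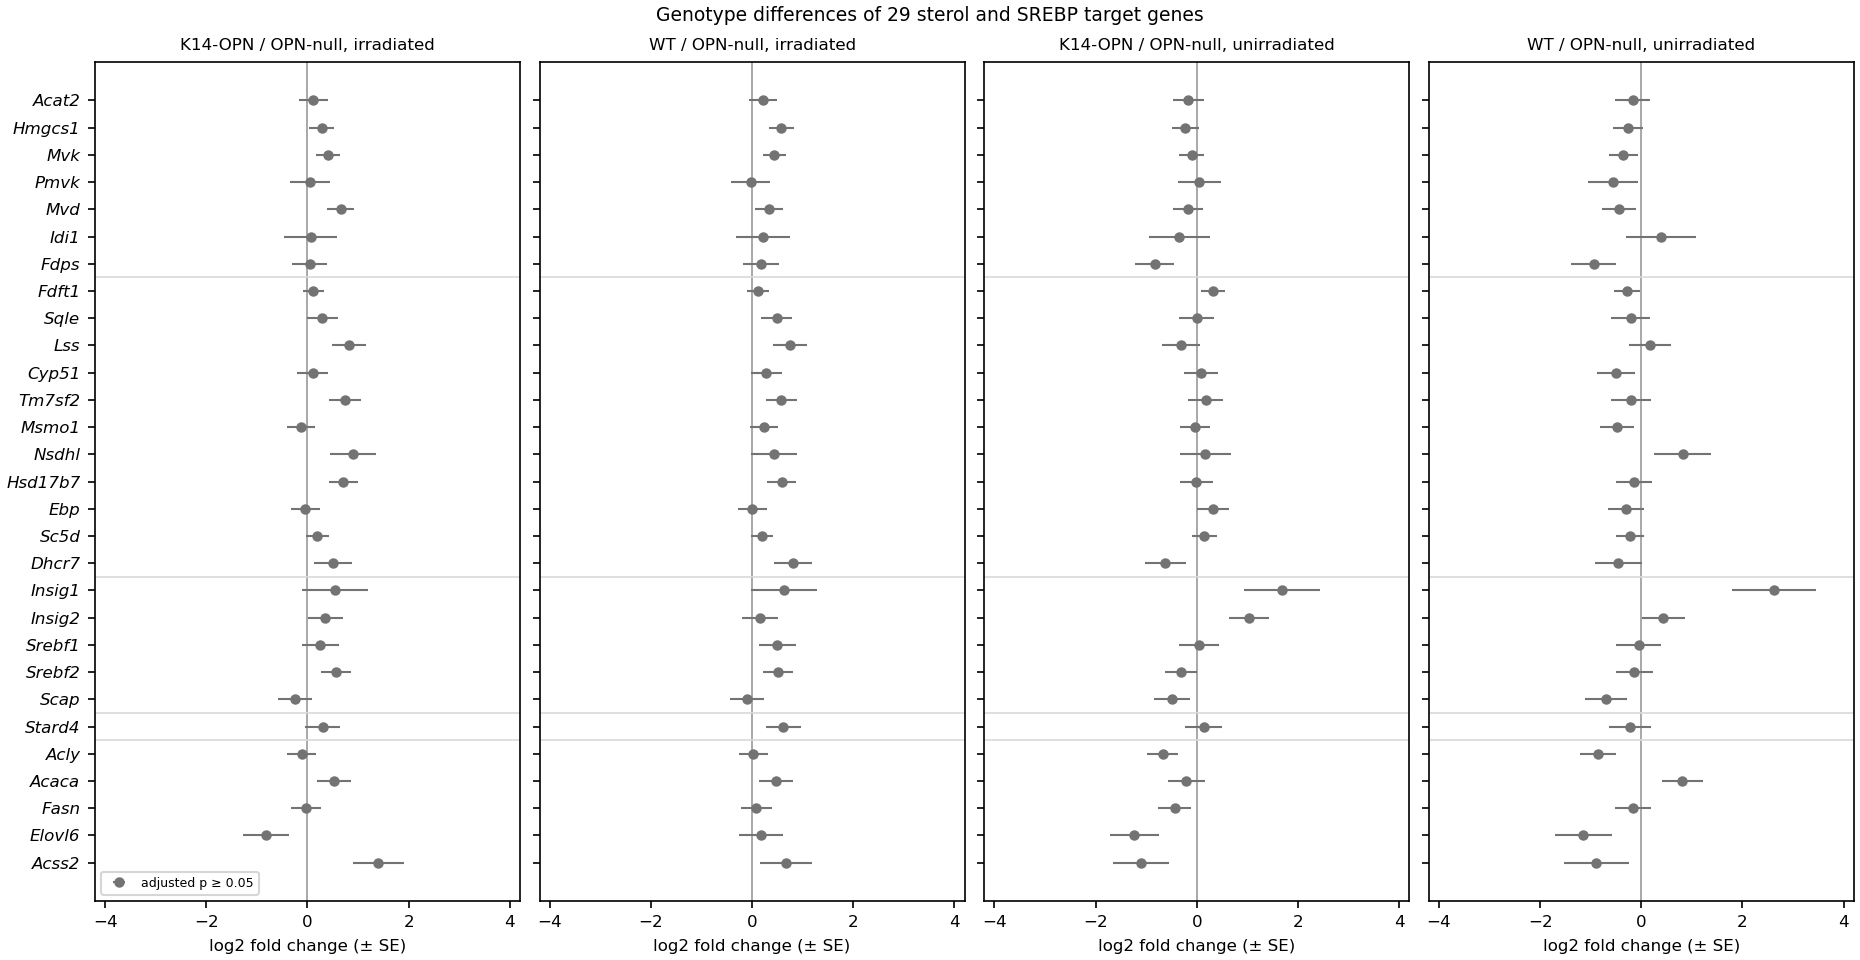
Log2 difference (horizontal axes, ± SE) of K14-OPN and WT from OPN-null epidermis, with UVB in the left 2 panels and without UVB in the right 2, for the 29 genes in pathway order. No gene was called; with UVB 23 of 29 K14-OPN and 27 of 29 WT estimates lie above 0.

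Without UVB, 0 of the 29 genes passed and 0% of all genes were called in each of the 3 comparisons of genotypes in edgeR, and DESeq2 and limma-voom called 0 of the 29. Before adjustment 5, 3 and 2 of the 29 had a p below 0.05 for K14-OPN against OPN-null, WT against OPN-null and K14-OPN against WT, and 8.49%, 6.19% and 2.28% of all genes did. K14-OPN against OPN-null had a median log2 difference of -0.10, against 0.12 over all genes, and Acly was the 1 gene apart, lower in K14-OPN, against 1.4% of all genes, with 0 higher, against 2.37%. WT against OPN-null had a median of -0.23, against 0.02 over all genes. In it 7 genes were lower in WT without overlap (Mvk, Pmvk, Fdps, Fdft1, Cyp51, Acly and Elovl6), against 3.79% of all genes. Fdps, for example, had 16.8 and 10.5 CPM in unirradiated WT libraries, against 19.3, 30.3 and 28.5 CPM in unirradiated OPN-null libraries (log2 difference -0.94 ± 0.44, adjusted p = 0.793). K14-OPN against WT had a median of 0.14, against 0.05 over all genes, with Pmvk and Fdft1 higher in K14-OPN without overlap, against 2.92% of all genes. With 2 unirradiated WT libraries, 1 of each kind, the group's range is poorly known.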

How the data were processed

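Values for 18 RNA-seq libraries of scraped mouse epidermis were the raw read counts that the authors deposited as a single table of genes. The submitters' processing notes name STAR 2.7.5a, HTSeq 0.11.3, Trim Galore 0.6.5, bcl2fastq 2.18.0.12 and the build GRCm38, with no role stated. The annotation release and strand setting used are not given in these sources. The labels give polyA RNA for each library. Symbols, positions and exon lengths came from GENCODE M21 (55144 of 56246 IDs matched), and promoters from RefSeq windows on GRCm38.p6. The 5 summary lines of the table were left out; counts assigned to genes were 11.2% to 56.0% of each library's total, and reads with no feature 20.8% to 50.4%. Counts limit the precision of each value, and the p-values cover the spread between libraries.

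Genes were filtered by filterByExpr (minimum count 10, minimum total 15), scaled by TMM and fitted with edgeR 4.0.16 (R 4.3.3; quasi-likelihood test, 6 group means plus the kind of library, 11 planned contrasts). A p adjusted by Benjamini-Hochberg over all 18910 genes below 0.05 was a call. CPM use TMM library sizes, and log2 CPM add a prior count of 2. The biological coefficient of variation was 0.595 with the kind term and 0.816 without. DESeq2 1.42.0, limma 3.58.1 (voom with quality weights), RLE scaling, no filter, no kind term, Lars2-rich libraries only, the compared groups only, a replicate block and leaving out libraries were alternatives. The code was tested on simulated data. The 29 genes, the other lists and the kinds of library were chosen with earlier results of these data known, so no list is independent evidence of its direction. All 29 genes are named; of each other list at most 4 past the threshold are named, by smallest p in the UVB contrasts, and S100a8, S100a9, Adipoq, Lep, Fabp4 and Lipe were named after their values were seen.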

Additional observations from a re-analysis of the deposited data

Results flagged for a closer look

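In the group of 4 irradiated OPN-null libraries, each of the 29 genes was examined for a library far from the others, and 3 genes had one. In each case it was library 16, the 7SK-rich one. Srebf2 stood at 196.4 CPM, Acaca at 38.2 CPM and Fasn at 591 CPM there, above the other 3 libraries, which are Lars2-rich. All 3 genes were also among the 9 that were higher in 7SK-rich libraries over the whole series. Chance flags about 1 in 20 such genes. The other groups held 2 or 3 libraries and were not examined in this way.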

How the results depend on the processing

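Counts of genes called depended on the model. No member called in the edgeR fit with the kind term changed sign in the same contrast under an alternative. Among members called only in another fit, Pmvk and Dhcr7 differed in sign between the kinds of library, and Insig1 differed in sign between alternatives, as given above. For UVB in K14-OPN, 1458 genes became 200 without the kind term, 708 in Lars2-rich libraries only, 3167 in DESeq2, 3957 in limma-voom and 0 in a fit of the compared groups only, and the 2 members became 0, 1, 5, 6 and 0; they were 1 without the filter on low counts and 4 without 3 libraries that stood apart (unirradiated WT 10, K14-OPN 11 and OPN-null 9). For UVB in WT, 705 genes became 18 without the kind term, 0 in Lars2-rich libraries, 2249 in DESeq2, 1341 without the filter and 206 in the compared groups only; its 1 member became 0, 0, 2 and 2 in the first 4 of these, and 0 in limma-voom and in the compared groups only, and the members' median, 0.175 with edgeR, was -0.073 in limma-voom. For UVB in OPN-null, 2594 genes became 644 without the kind term and 4247 in DESeq2, and the 7 members became 3 without the kind term, 4 in Lars2-rich libraries and 11 without the 3 libraries. For the average, 6118 genes became 4054 without the kind term and 3862 in Lars2-rich libraries, and 11 members became 5 without the kind term. Hmgcs1, Mvd, Fdft1, Hsd17b7, Srebf1 and Acaca lost their calls in the average without the kind term. RLE scaling kept all 36 such counts and medians near their values.

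After UVB, K14-OPN against OPN-null had 0 genes, which became 1 in Lars2-rich libraries, 256 in DESeq2, 1656 in limma-voom, 47 without the filter, 20 without the 3 libraries and 1 in the compared groups only, with 3 members in limma-voom. WT against OPN-null had 1, which became 2 (Lars2-rich only), 11 (DESeq2), 5 (no filter), 2 (without the 3 libraries) and 0 (compared groups only). K14-OPN against WT had 0, which became 18 in DESeq2, 1125 in limma-voom, 153 without the filter, 2 without the 3 libraries and 941 in the compared groups only, with 1 member in limma-voom. Without UVB, 0 became 42 (Lars2-rich only), 112 (DESeq2) and 296 (no filter) for K14-OPN less OPN-null, 15, 15 and 296 in the same 3 for WT less OPN-null, where 1 member, Insig1, passed without the filter, and 7 (DESeq2) and 44 (no filter) for K14-OPN against WT. For the differences of the UVB changes, 0 became 27 (DESeq2) and 141 (no filter) for K14-OPN, and 10 (DESeq2), 87 (no filter) and 1 (compared groups only) for WT. The causes were not tested.

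Leaving out 1 library of the groups compared gave 342 to 2203 genes and 0 to 1 members for UVB in K14-OPN, 2 to 675 genes and 0 to 3 members in WT, and 1438 to 3173 genes and 5 to 8 members in OPN-null. Without UVB it gave 0 to 6 genes for K14-OPN and 0 to 2 for WT, each against OPN-null. It gave 0 to 1 for irradiated WT against OPN-null and 0 to 1 for the difference of the K14-OPN change. Leaving out any of the 18, also of groups outside the contrast, widened these to 0 to 3 members in K14-OPN, 2 to 1511 genes in WT, 1438 to 3383 genes in OPN-null and 0 to 2 genes for irradiated WT against OPN-null. The average called 9 to 11 members. With 1 library left in an arm, that library is taken to have the spread of the rest. The members' median for UVB in K14-OPN ran between -0.24 and 0.05, and in WT between -0.02 and 0.32, so neither sign was stable. With K14-OPN replicate numbers 1 and 2 as a replicate block, 1 member was called, Fdft1 being lost at -0.81; same-numbered libraries, which are of different kinds for numbers 1 and 2, correlated at -0.45 and -0.58 as deviations from group means and at -0.17 and 0.19 after the kind term, so the numbers were not taken as pairs. Over all 26 alternatives of the average, Elovl6, Fdps and Scap were called each time. The shallowest library, with 3696865 counts, limits the low genes most, such as Idi1 with 4 counts.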

Other observations

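Beyond the 29 genes, 12 other sterol genes were tested from a list of sterol-sensing, cleavage and trafficking genes and branch enzymes. In the average of the 3 genotypes 1 rose and 2 fell, against 15.6% and 16.7% of all genes, so that the counts were not above the background, and the median log2 fold change was 0.02. The 1 gene that rose was Nus1, a subunit of the enzyme that makes dolichol from farnesyl diphosphate, with a log2 fold change of 2.33 in OPN-null epidermis (edgeR, adjusted p = 0.00836) and 1.67 in the average (adjusted p = 0.000841). Of 10 tested genes of sterol efflux and of LXR, the receptor that answers to oxysterols, 3 fell and 0 rose in the average, against the same 16.7% and 15.6%. Cyp27a1, which makes 27-hydroxycholesterol, fell in OPN-null epidermis by a log2 fold change of -4.36, and by -2.26 in the average.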
